A study of Arabidopsis thaliana with 4 samples.

Results

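The C-repeat binding factors (CBF, also called DREB1) and the DREB2 proteins are transcription factors of the AP2/ERF family, and 9 of their genes were followed on the arrays. They were taken by name, as the 6 DREB1 genes CBF1, CBF2, CBF3, CBF4, DDF1 and DDF2 and the DREB2 genes DREB2A, DREB2B and DREB2C. All 9 were found on the array by matching the transcript accession of each probe to its TAIR locus. The 34252 genes counted on the array include transcripts that matched no locus. Both groups of proteins bind the dehydration-responsive element, also called the C-repeat, in the promoters of genes for protective proteins and enzymes of osmolyte synthesis. CBF1, CBF2 and CBF3 are best known for their rapid induction by cold, CBF4 for its response to drought and abscisic acid (ABA), and DDF1 for its response to salt. The DREB2 genes respond to drought, salt and heat, and the DREB2A protein is in addition held at a low level by ubiquitin ligases until stress is sensed.

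The mutant group was sahy9-1, an APUM23 allele that carries a T-DNA within an exon, and the wild type was Col-0. APUM23 encodes a nucleolar Pumilio RNA-binding protein that takes part in pre-rRNA processing. Whole seedlings of both genotypes grew for 10 days without added salt and were then kept on 150 mM NaCl for 1 day, and the arrays of both genotypes therefore carry the salt treatment. RNA of 2 samples per genotype was labelled with Cy3, and each sample was hybridised to its own Agilent array.

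The 4 arrays lay on 1 slide and came from 1 scan, with 74.6% to 76.3% of the 43803 gene spots well above background and 0 saturated spots. Across the genes that passed the filter on low signal, each by its brightest probe, the 2 arrays of a genotype correlated at r = 0.996 (sahy9-1) and 0.995 (Col-0). Arrays of different genotypes correlated at 0.947 to 0.959. APUM23 was 7.71-fold lower in sahy9-1 (log2 fold change -2.95 ± 0.12 (SE), adjusted P = 0.00097 by limma). Leaf markers summed to 289.9 and 301.3 times the 75th percentile of the array in sahy9-1, against 330.1 and 350.7 in Col-0, and 3 of the 6 passed the test, all lower. Of all 21729 genes tested, 24.0% were called lower by that test and 25.4% higher. Root markers summed to 2.87 and 2.89 in sahy9-1, against 3.07 and 2.66 in Col-0, with 1 of 6 lower and 1 higher. The lower one, PLT1, passed the filter on low signal through the Col-0 arrays alone. None of the 4 seed storage genes reached the signal filter. In whole seedlings fewer cells that express a gene and less RNA per cell cannot be told apart, and the part of the leaf markers in the results was not tested.

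Of the 9 genes, 8 passed the filter on low signal and were tested. CBF4 and DDF1 passed it through the Col-0 arrays alone. CBF3, CBF4 and DREB2A were lower in sahy9-1 and DREB2C was higher, at an adjusted P of 0.05 or less in limma. Over all 21729 genes tested, 24.0% were called lower by the same rule and 25.4% higher, so that a call without regard to its size was common on these arrays. With the 3-fold threshold added, CBF3 and CBF4 were lower and DREB2C was higher, whereas 1.59% of all genes were lower and 1.66% were higher by that rule. The arrays of the 2 genotypes did not overlap for 6 of the 8 genes, and they did not overlap for 80.3% of all genes. The median log2 fold change was -1.25 over the 8 genes and -0.0041 over all genes tested.

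**Figure D1:**
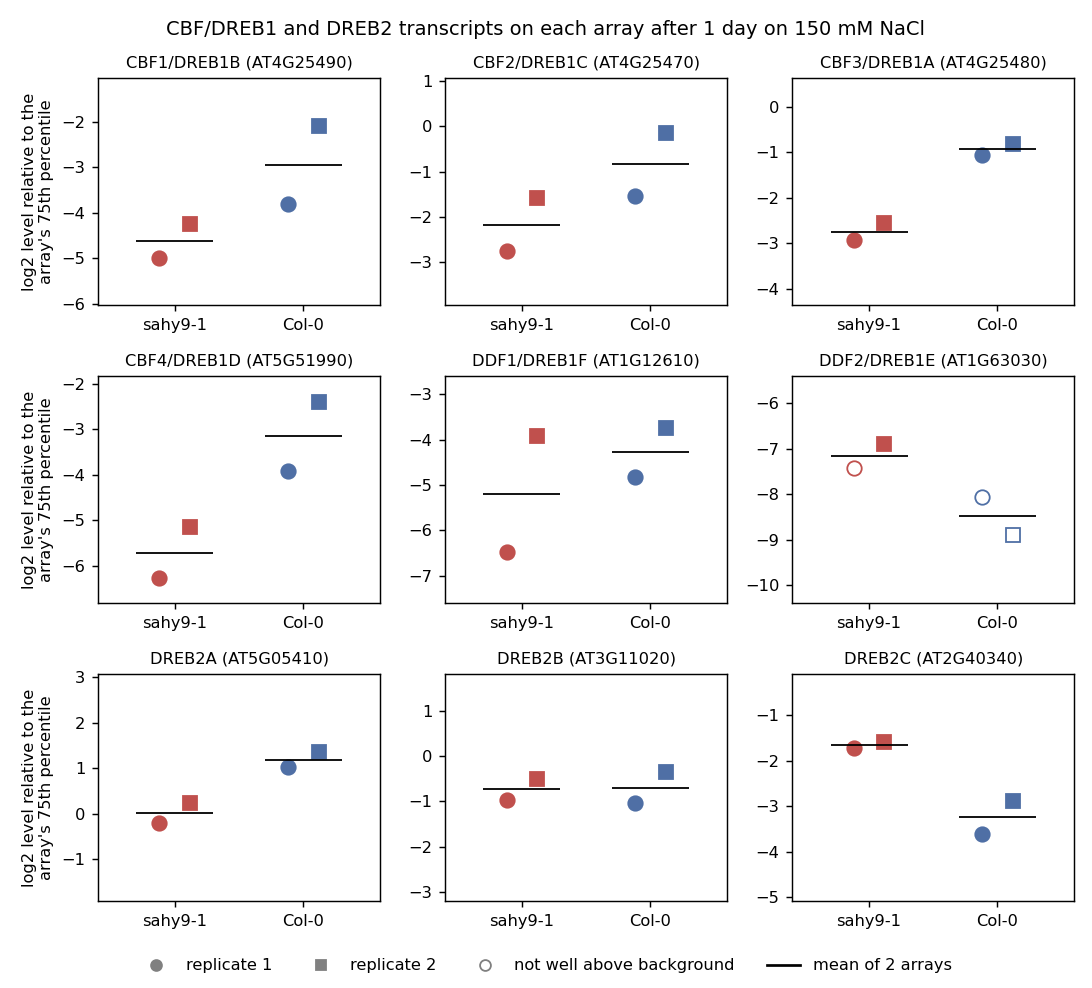
Level of each of the 9 transcripts on each array, as log2 of the background-subtracted signal relative to the 75th percentile of that array, with sahy9-1 to the left of Col-0. Circles are replicate 1, squares are replicate 2, open symbols are spots not well above background and lines are means of 2 arrays. Every panel spans the same range on the log2 scale but starts at its own level, and levels of different genes are not comparable because each has its own probe. CBF3, DREB2A and DREB2C show genotype differences wider than the gaps between replicates, while DDF1 and DREB2B overlap.

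CBF3 (DREB1A, AT4G25480), an activator of the cold-response genes, was lower in sahy9-1 by 3.52-fold, which the paper already reports from these arrays. Its background-subtracted signal was 436 and 498 units on the sahy9-1 arrays, against 1365 and 1547 units on the Col-0 arrays. The scaled level, which is the log2 signal minus the 75th percentile of the array and is the scale of all tests, was -2.75 ± 0.26 in sahy9-1 and -0.93 ± 0.17 in Col-0 (SD, n = 2 each). The difference of -1.82 ± 0.16 (SE) had a 95% confidence interval of -2.24 to -1.40 and an adjusted P of 0.0033 in limma. Both sahy9-1 arrays lay below both Col-0 arrays, and the gap between the genotypes was several times the gap between replicates. The difference lay between -2.00 and -1.63 with any single array left out, past the 3-fold threshold each time.

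CBF1 (DREB1B, AT4G25490) and CBF2 (DREB1C, AT4G25470) stand in a row with CBF3 on the chromosome, and their proteins are closely related to it. CBF1 gave 104 and 156 units in sahy9-1, against 204 and 641 units in Col-0. Its mean level was -4.62 ± 0.53 in sahy9-1 and -2.94 ± 1.21 in Col-0 (SD, n = 2 each), a log2 difference of -1.68 ± 0.62 (SE, 95% confidence interval -3.33 to -0.03). The arrays did not overlap, yet the difference did not pass (adjusted P = 0.084 in limma), and the Col-0 replicates themselves lay 1.72 log2 units apart. Without Col-0 replicate 1 the difference was -2.54 and passed (adjusted P = 0.021), and without Col-0 replicate 2 it was -0.82 (adjusted P = 0.15).

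CBF2 gave 494 and 986 units in sahy9-1, against 976 and 2459 units in Col-0. The higher sahy9-1 array lay at -1.58 and the lower Col-0 array at -1.54 on the scaled log2 level, so that the genotypes only just failed to overlap. The difference was -1.32 ± 0.61 (SE, 95% confidence interval -2.93 to 0.28, adjusted P = 0.13 in limma), and it ranged from -2.02 to -0.63 with single arrays left out without passing. For the 3 neighbouring CBF genes the direction was the same, but CBF3 alone was past the test in the unpaired comparison used throughout. Within replicate numbers the log2 difference was -1.20 and -2.16 for CBF1, and -1.21 and -1.44 for CBF2. With the replicate number as a block CBF1 and CBF2 passed too, but no label says that a number marks a shared experiment. Whether the 3 genes differ from each other in their change was not tested. The coding sequences of these genes are similar, and whether a probe of one also bound transcripts of another was not tested. The protein-coding genes on either side of the row were also lower, by far less, with log2 fold changes of -0.28 ± 0.08 for ABCB28 next to CBF2 and -0.30 ± 0.07 for RS40 next to CBF1 (adjusted P = 0.037 and 0.021, limma). These neighbours were looked up by their place, not by their change, and both calls were lost without Col-0 replicate 1 (adjusted P = 0.11 and 0.066) or either sahy9-1 array.

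CBF4 (DREB1D, AT5G51990), the member of the DREB1 group that answers to drought and ABA, had the largest fitted difference of the 8 genes. It gave 42.9 and 82.7 units in sahy9-1, against 187 and 518 units in Col-0. All 4 spots were well above background, and each sahy9-1 array lay below each Col-0 array. The mean level was -5.72 ± 0.79 in sahy9-1 and -3.16 ± 1.09 in Col-0 (SD, n = 2 each), a 5.90-fold lower level (log2 fold change -2.56 ± 0.63 (SE), 95% confidence interval -4.23 to -0.89, adjusted P = 0.029 in limma). The call was lost without Col-0 replicate 2 (-1.79, adjusted P = 0.068) and without sahy9-1 replicate 1 (-2.00, adjusted P = 0.11). It was also lost with the normexp background correction (-2.02, adjusted P = 0.13) and when the filter on low signal was removed (adjusted P = 0.095).

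DDF1 (DREB1F, AT1G12610) is known for raising a gibberellin-deactivating enzyme under salt. It gave 37.7 and 196 units in sahy9-1, against 101 and 202 units in Col-0. One sahy9-1 array lay below both Col-0 arrays and the other lay between them on the scaled level. The log2 difference of -0.91 ± 0.92 (SE, 95% confidence interval -3.34 to 1.53, adjusted P = 0.45 in limma) did not exceed the spread. Without sahy9-1 replicate 1 it was 0.37, and without sahy9-1 replicate 2 it was -2.19, so the direction depended on a single array.

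DDF2 (DREB1E, AT1G63030), the closest relative of DDF1, was the gene that did not reach the signal filter. Its scaled log2 level was -7.43 and -6.91 in sahy9-1, against -8.06 and -8.91 in Col-0, and only sahy9-1 replicate 2 was well above background. Its mean level of -7.17 in sahy9-1 lay close to the lowest levels that counted as well above background on the Col-0 arrays, -7.06 and -7.35, and no fold is given. In a fit without the filter it did not pass (adjusted P = 0.10 in limma).

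**Figure D2:**
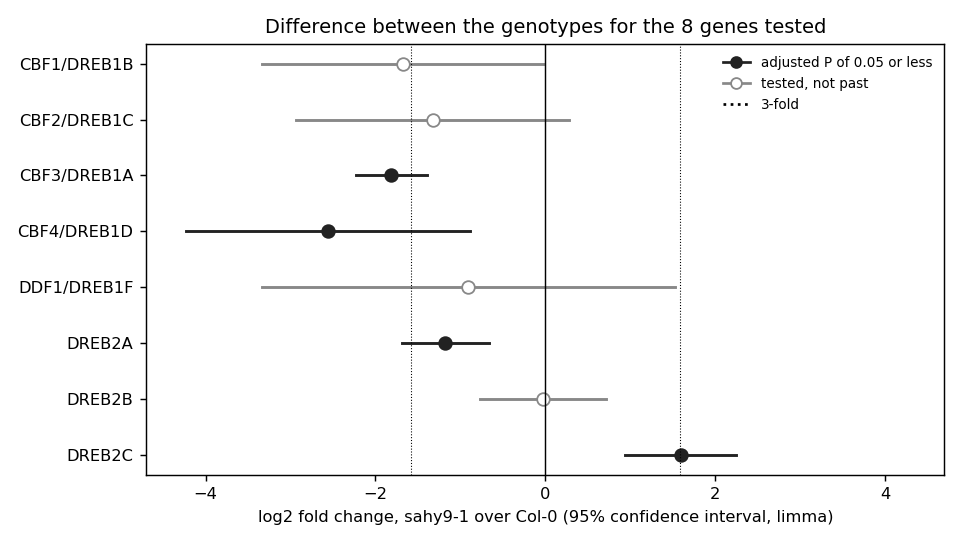
Log2 fold change of each of the 8 genes tested, sahy9-1 over Col-0, with its 95% confidence interval from limma. Filled points passed an adjusted P of 0.05, open circles did not and dotted lines mark 3-fold. The intervals of CBF3, DREB2A and DREB2C are narrow and lie clear of 0, that of CBF4 is wide but clear of 0, that of CBF1 ends at -0.03, and those of CBF2, DDF1 and DREB2B include 0.

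DREB2A (AT5G05410), the main activator of drought- and salt-response genes in its group, was lower in sahy9-1 by 2.26-fold. It gave 2875 and 3498 units in sahy9-1, against 5828 and 6920 units in Col-0, and the arrays of the genotypes did not overlap. The mean level was 0.02 ± 0.32 in sahy9-1 and 1.19 ± 0.22 in Col-0 (SD, n = 2 each). The log2 fold change was -1.18 ± 0.19 (SE, 95% confidence interval -1.69 to -0.67, adjusted P = 0.0099 in limma), under the 3-fold threshold. The other 2 probes for this gene, which were dimmer, gave -1.18 and -1.30. By qRT-PCR on seedlings treated likewise, the paper reports no significant change of DREB2A in the mutant. The charted qRT-PCR values of the mutant under salt show no fall of the size seen on the arrays. The reason for the difference between the methods was not tested. With single arrays left out the difference lay between -1.41 and -0.95 and passed each time.

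DREB2B (AT3G11020), the nearest relative of DREB2A, gave 1709 and 2093 units in sahy9-1, against 1377 and 2118 units in Col-0. Both sahy9-1 arrays lay between the Col-0 arrays. For DREB2B too the paper reports no significant change in the mutant by qRT-PCR. The log2 difference was -0.03 ± 0.28 (SE, adjusted P = 0.94 in limma), and its 95% confidence interval of -0.77 to 0.72 leaves room for a change of up to that size in either direction. It was 0.31 without Col-0 replicate 2 and 0.20 without sahy9-1 replicate 1.

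DREB2C (AT2G40340) is known for its induction by heat and for activating the heat-shock factor gene HSFA3. It was the member that was higher in sahy9-1, which the paper already reports from these arrays. It gave 1011 and 979 units in sahy9-1, against 234 and 366 units in Col-0. The sahy9-1 arrays were close to each other, at a mean level of -1.66 ± 0.09, and both lay well above the Col-0 arrays at -3.25 ± 0.50 (SD, n = 2 each). The level was 3.01-fold higher, just past the 3-fold threshold (log2 fold change 1.59 ± 0.25 (SE), 95% confidence interval 0.94 to 2.25, adjusted P = 0.0087 in limma). It passed the test with each single array left out (1.24 to 1.95) and did not with the normexp background correction (1.06, adjusted P = 0.20).

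The genes on either side of DREB2C are PYL6, which encodes an ABA receptor, and DREB2H, a further gene of the DREB2 group. PYL6 was higher in sahy9-1 by 3.08-fold, at levels of -1.38 and -1.37 in sahy9-1 and -3.41 and -2.58 in Col-0 (log2 fold change 1.62 ± 0.28 (SE), adjusted P = 0.011 in limma). PYL6 and DREB2C thus shared their direction, and in both the lower of the Col-0 arrays was replicate 1. PYL6 was singled out after its value was seen. Its call was lost with the normexp correction (1.22, adjusted P = 0.16) and without either sahy9-1 array (adjusted P = 0.054 without replicate 1 and 0.056 without replicate 2). DREB2H did not reach the filter, with 98.8 and 66.3 units in sahy9-1 and 46.4 and 81.9 units in Col-0, which overlap.

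A second feature of the group, shared by DREB2D outside it, was its spread between replicates of a genotype. All 8 tested genes were higher on replicate 2 than on replicate 1 in sahy9-1 and in Col-0 alike, whereas 27.1% of all genes tested were. The gap between replicates, as a log2 difference of scaled levels, exceeded the 95th percentile of all genes for 7 of the 8 in sahy9-1 and for 6 of the 8 in Col-0. That percentile was 0.35 in sahy9-1 and 0.47 in Col-0, and the median gap was 0.07 and 0.11. Of the 2 other DREB2 genes tested, DREB2D was also higher on replicate 2 in both genotypes. Its gaps of 0.41 in sahy9-1 and 0.63 in Col-0 were past the percentile too. DREB2F was lower on replicate 2 in sahy9-1 (-0.19) and higher in Col-0 (0.23).

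Of the 8 genes, CBF1, CBF2, CBF4, DDF1 and DREB2B exceeded the 95th percentile in both genotypes. Replicate 2 was 1.68-fold above replicate 1 for CBF1 in sahy9-1, and 3.29-fold above in Col-0. For CBF2 these ratios were 2.25 in sahy9-1 and 2.63 in Col-0, and for CBF4 they were 2.18 and 2.9. The widest gap was that of DDF1 in sahy9-1, at 5.88-fold, against 2.09-fold in Col-0. CBF3 had ratios of only 1.29 in sahy9-1 and 1.19 in Col-0, and DREB2A 1.37 and 1.24, and these genes had the smallest SEs of the 8 (0.16 and 0.19).

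**Figure D3:**
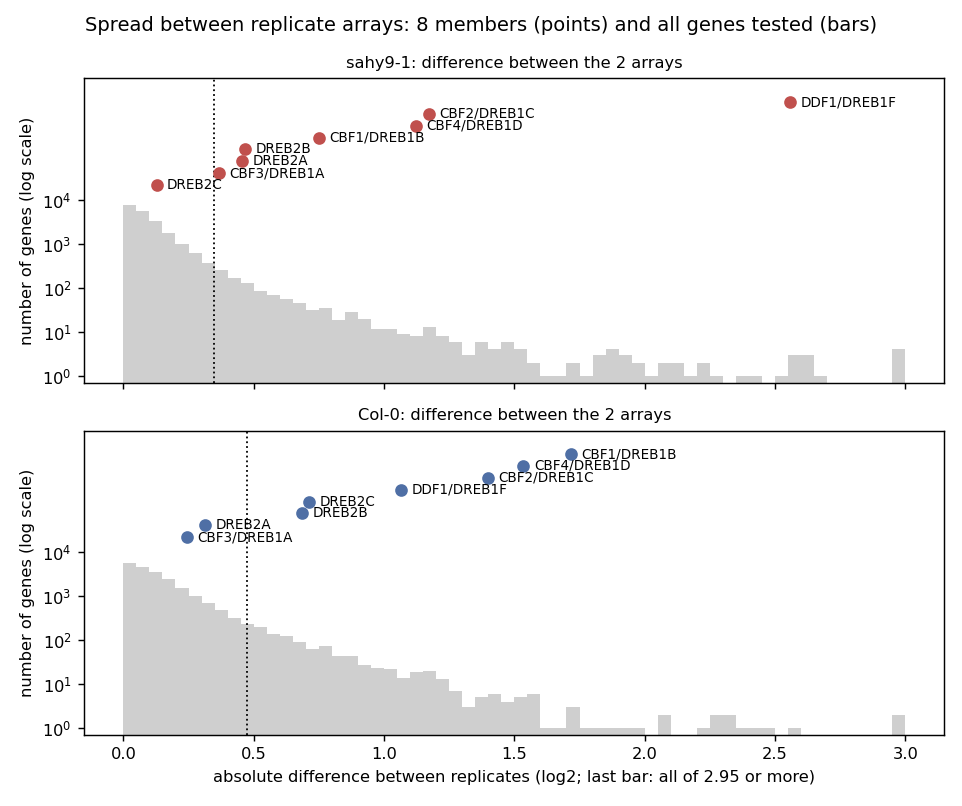
Absolute log2 difference between the 2 arrays of a genotype for the 8 tested genes (points) and for all 21729 genes tested (grey bars, number of genes on a log scale), sahy9-1 above Col-0. The dotted line is the 95th percentile of all genes, 0.35 in sahy9-1 and 0.47 in Col-0, and the height of a point has no meaning. In sahy9-1 all points but DREB2C lie to the right of the line, and in Col-0 all but CBF3 and DREB2A.

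Of the regulators of the CBF genes, ZAT12, a zinc-finger repressor, and MYB15, a repressor that binds the CBF promoters, also lay higher on replicate 2. The ratio of replicate 2 to replicate 1 was 1.57 in sahy9-1 and 1.68 in Col-0 for ZAT12, and 1.55 in sahy9-1 and 1.51 in Col-0 for MYB15. For the clock gene CCA1 the gap was smaller, at log2 differences of 0.07 in sahy9-1 and 0.13 in Col-0. Both targets with the largest changes ran the other way. COR413IM1 had ratios of 0.607 in sahy9-1 and 0.562 in Col-0, and RD29B 0.648 and 0.671. These 5 genes were picked after their values were seen, and no cause of the replicate gaps was tested.

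For the 3 genes past both thresholds, the transcripts with the most similar pattern were those with the smallest distance over the 4 arrays after centring on the Col-0 mean. For CBF3 they were UGT85A3, a glycosyltransferase gene, at a distance of 0.10, the MYB factor gene MYB74 at 0.13, and a transcript known only as TA25943_3702 at 0.13. For CBF4 the jasmonate-regulated gene JRG21 was nearest at 0.11, and the next, IAA5 of the auxin-response repressors and AT3G25573, lay at 0.60 and 0.62. JRG21 had a log2 fold change of -2.57 ± 0.67 (SE), beside -2.56 for CBF4. This likeness follows from the way JRG21 was picked on the same arrays and is no separate result. The limma call of JRG21 (adjusted P = 0.034) was lost without Col-0 replicate 2, sahy9-1 replicate 1 or sahy9-1 replicate 2. For DREB2C the nearest were AT5G36925, AT5G54720 and AT4G34770, at 0.10 to 0.11. With 4 arrays such likeness is a description only.

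The listed targets of the factors were lower nearly throughout, but the lists were drawn up with earlier results of these data known. The paper already reports COR413IM1, COR15A and RD29A as lower on these arrays, so the counts are not independent of those results. Of 13 genes of the CBF regulon, 12 were lower in sahy9-1, 0 were higher and 1 did not pass, beside 24.0% of all genes tested called lower. Their median log2 fold change was -1.28, beside -0.0041 over all genes. COR413IM1, which encodes a chloroplast membrane protein, was 9.36-fold lower (log2 fold change -3.23 ± 0.37 (SE), adjusted P = 0.0048 in limma), at scaled log2 levels of -0.74 and -1.46 in sahy9-1 and 2.55 and 1.71 in Col-0. COR15A, for a chloroplast protein that protects membranes in freezing, was 5.91-fold lower (-2.56 ± 0.36, adjusted P = 0.0069). RD29A, the marker gene in which the dehydration-responsive element was defined, was 3.51-fold lower (-1.81 ± 0.09, adjusted P = 0.0012). Its other probe, which was dimmer, gave a 4.59-fold lower level. The other 9 that passed were lower by 1.58- to 2.87-fold, among them the dehydrin genes COR47 and ERD10. GOLS3, also among these 9, passed the filter on low signal through the Col-0 arrays alone. COR47 was 1.64-fold lower by its brightest probe, and 2.56-fold and 2.80-fold lower by its other 2 probes. ZAT10, a zinc-finger repressor gene, had a log2 fold change of 0.22 (adjusted P = 0.52), which was -0.02 without Col-0 replicate 1 and -0.08 without sahy9-1 replicate 2.

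Of 8 targets of DREB2A, 7 were lower, 0 were higher and 1 did not pass, with a median of -1.73. Over all genes tested 24.0% were called lower. This list too was drawn up with earlier results known, and the paper reports RD29B and GOLS1 as lower on these arrays. RD29A and COR47 stand in both target lists. RD29B, a gene strongly driven by ABA, was 6.82-fold lower (-2.77 ± 0.29 (SE), adjusted P = 0.0041 in limma). The LEA protein genes AT3G17520 and LEA7 were 5.32-fold and 3.40-fold lower (-2.41 ± 0.37 and -1.76 ± 0.30, adjusted P = 0.0085 and 0.011). GOLS1, for galactinol synthase, was 3.22-fold lower (-1.69 ± 0.07, adjusted P = 0.0011). The calls of AT3G17520 and LEA7 were lost with the normexp correction (adjusted P = 0.058 and 0.064), and that of LEA7 without Col-0 replicate 1 (-1.61, adjusted P = 0.054). HSFA3, the target that DREB2A shares with DREB2C, did not pass, with a log2 fold change of 0.35 ± 0.21 (SE, adjusted P = 0.22), although it passed without Col-0 replicate 2 (0.65, adjusted P = 0.016). Many of these genes also answer to ABA through other factors, and the counts do not separate the routes.

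**Figure D4:**
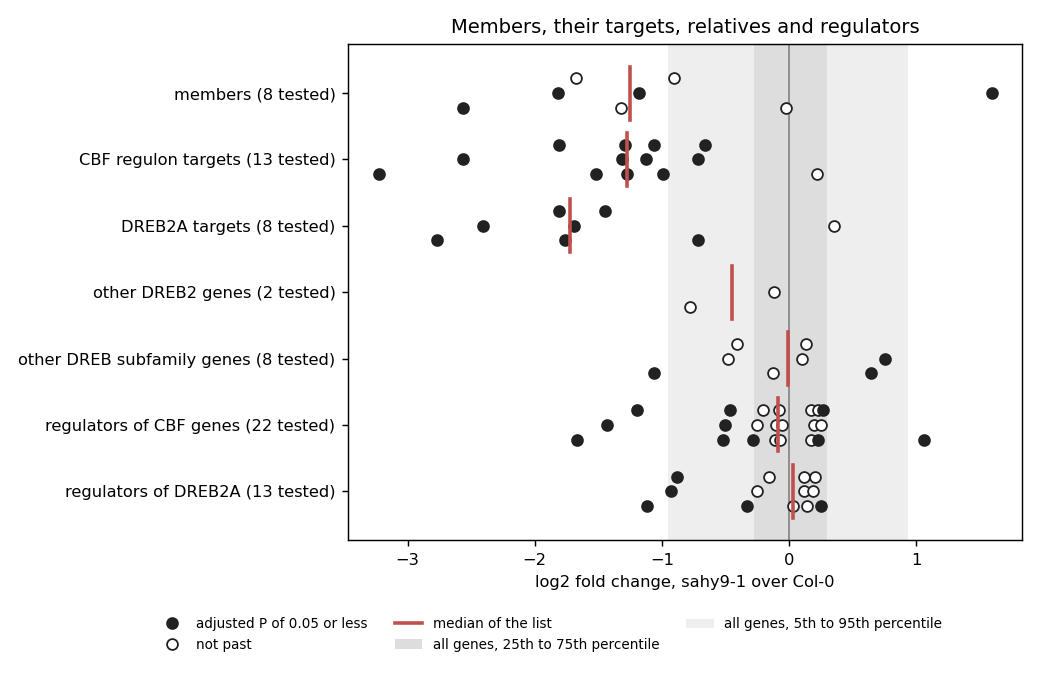
Log2 fold change, sahy9-1 over Col-0, of the 8 tested genes, their targets, their relatives and their regulators. Each point is a gene, filled where the adjusted P was 0.05 or less, the red line is the median of the list, and the shaded bands run from the 25th to the 75th and from the 5th to the 95th percentile of all genes tested. The medians of the CBF regulon (-1.28) and of the DREB2A targets (-1.73) lie left of the 5th percentile of all genes (-0.94), and those of the regulators lie near 0.

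Of the other genes of the DREB2 group, 4 of 5 were on the array by accession and 2 were tested, of which 0 passed in limma, at an adjusted P of 0.061 for DREB2D and 0.43 for DREB2F. DREB2E, also called DREB19 (AT2G38340), matched no probe by accession and was not analysed here. The paper reports it as higher in the mutant on these arrays. DREB2D gave 705 and 828 units in sahy9-1, against 955 and 1413 units in Col-0, which did not overlap (log2 fold change -0.78 ± 0.26 (SE)). It passed without Col-0 replicate 1 (-1.09, adjusted P = 0.032). DREB2G gave 4.53 and 29.5 units in sahy9-1, against 5.03 and 3.92 units in Col-0, and was well above background on 1 sahy9-1 array. Among 8 further tested genes of the DREB subfamily, 1 was lower and 2 were higher, with a median of -0.01. Over all genes tested 49.4% were called in either direction, so that 3 of 8 is no more than the background. These were RAP2.1, a repressor that is itself a CBF target (-1.06, adjusted P = 0.0049), and DEAR1 and RAP2.9 (0.75 and 0.65, adjusted P = 0.012 and 0.0056, limma). They were named after their values were seen, and DEAR1 did not pass without Col-0 replicate 1 (adjusted P = 0.051).

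Of 22 tested regulators of the CBF genes, 7 were lower, 3 were higher and 12 did not pass, with a median of -0.09. These 10 of 22 stand beside 49.4% of all genes called in either direction and are close to that background. SOC1, a MADS-box factor of flowering that represses the CBF genes, was the one past 3-fold (3.18-fold lower, -1.67 ± 0.12 (SE), adjusted P = 0.0024 in limma), at scaled log2 levels of -0.30 and -0.46 in sahy9-1 and 1.42 and 1.16 in Col-0. Of those under 3-fold, the clock genes PRR9 and CCA1 were lower (-1.43 and -1.20, adjusted P = 0.0077 and 0.0021) and MYB15 was higher (1.06, adjusted P = 0.039), genes singled out after their values were seen. The call of MYB15 was lost without Col-0 replicate 1 or sahy9-1 replicate 2 (adjusted P = 0.13 in both). ICE1, the activator of CBF3 in the cold, had a log2 fold change of -0.11 (95% confidence interval -0.27 to 0.06). The count of 10 regulators past the test was 4 without sahy9-1 replicate 1 and 3 without sahy9-1 replicate 2.

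Of 13 tested regulators of DREB2A, 4 were lower, 1 was higher and 8 did not pass, with a median of 0.03, and 0 were past 3-fold. These 5 of 13 do not exceed the 49.4% of all genes called. The genes that passed were the ABA-response factors ABF2 and ABF3 (-1.12 and -0.88, adjusted P = 0.0055 and 0.0041), the heat-shock factors HSFA1E and HSFA1B (-0.93 and -0.33, adjusted P = 0.0028 and 0.014), and DRIP1, a ubiquitin ligase of the DREB2A protein (0.25, adjusted P = 0.039, limma). These 5 were named after their values were seen, and the calls of HSFA1B and DRIP1 were lost without either sahy9-1 array, that of DRIP1 also without either Col-0 array. The count of 5 was 3 without sahy9-1 replicate 1 and 3 without sahy9-1 replicate 2.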

How the data were processed

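The authors read the arrays with Agilent Feature Extraction 10.7.1.1 and deposited the spot intensities after background subtraction. The deposited log2 table has the same scaling, centred on the Col-0 mean, to within 0.001 for 100% of 43542 probes with a single spot, and served as an alternative. Intensities were taken to log2 and scaled to the 75th percentile of each array. Control and outlier spots were left out, spots of a probe averaged, and the brightest probe stood for a gene. Of 35137 transcripts, 26309 were matched to a locus by accession, with names and neighbours from TAIR10.1 and no coordinates, as the build of the array differs. Each unmatched transcript was counted as a gene, also among the genes tested. Genes with a signal of at least 100 on both arrays of 1 genotype were tested with limma 3.58.1 (R 4.3.3), unpaired, with Benjamini-Hochberg adjustment over 21729 genes. Figures used matplotlib 3.10.9. The fit was tested on simulated data.

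All 9 genes are named, with, of each list, those past the adjusted P of 0.05 and 3-fold, at most 5, and the 3 nearest patterns of each such member. The members and lists were chosen with earlier results of these data known. With 2 arrays per genotype an exact permutation test cannot go below P = 0.333, and the number of arrays limits the precision. Alternatives changed background correction, scaling, filter, outlier spots, probes, variance model, pairing, arrays, test, source of values and fold threshold. Sequences were not analysed here.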

Additional observations from a re-analysis of the deposited data

How the results depend on the processing

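CBF3 and DREB2A kept their calls in every limma setting, and CBF4 and DREB2C lost theirs as given above. Median scaling, quantile normalization, keeping outlier spots, the variance model, the raw-signal filter and the deposited table moved no count by over 1.5 times. With normexp, run on the median signal because the files hold no mean signal, 2 members passed, 1 of them past 3-fold, with 2756 of all genes (324 past 3-fold), 4 DREB2A targets, 1 gene of the further DREB subfamily, and 2 regulators each of the CBF genes and of DREB2A. The main counts were 4 members (3 past 3-fold), 10737 genes (705 past 3-fold), 7, 3, 10 and 5. CBF regulon targets past the test numbered 8 with normexp, against 12 in the main fit. Without the signal filter 0 members stayed untested, and 6585 genes and 4 regulators of the CBF genes passed, against 6 regulators with a filter on spots well above background. The mean over probes gave 3 regulators of DREB2A.

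The methods' t-test, which takes the spread of each gene from its 4 arrays alone, called 91 genes after adjustment (15 past 3-fold), with 0 members, 0 members past 3-fold and 0 genes of each list. Without adjustment it called 2 members, 10 CBF regulon targets, 6 DREB2A targets, 2 of the further DREB subfamily, 10 regulators of the CBF genes and 7 of DREB2A.

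The study's methods describe 2 biological experiments and the sample titles carry the same numbers in both genotypes, but neither says that a number marks an experiment shared by them. Across all genes the replicate differences of the genotypes correlated at r = 0.44 (Spearman's rho 0.30). Whether a number marks a shared experiment was not tested. With the replicate number as a block, 6 members and 11842 genes passed, CBF1 (adjusted P = 0.0059) and CBF2 (adjusted P = 0.0012) among them, and 1 other DREB2 gene passed in place of 0.

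With single arrays left out, where the lone array is assumed to vary like the others, the counts ranged over 3 to 5 members (2 to 3 past 3-fold, and 1 to 1 under the filter), 4622 to 10032 genes (614 to 889 past 3-fold), 10 to 12 CBF regulon targets, 6 to 8 DREB2A targets, 0 to 1 other DREB2 genes, 2 to 4 of the further DREB subfamily, 3 to 7 regulators of the CBF genes and 3 to 5 of DREB2A. The lowest counts of all genes and of regulators of the CBF genes came without sahy9-1 replicate 2 (4622 and 3), with 4916 and 4 without sahy9-1 replicate 1. Log2 fold changes turned in 5 cases, ZAT10 in a pair of settings (-0.080 to 0.51, and -0.02 without Col-0 replicate 1), DDF1 (-2.19 to 0.37) and DREB2B in a pair of settings (-0.37 to 0.31, and 0.20 without sahy9-1 replicate 1). Over 48 single genes and the settings run, 665 values kept their direction and side of the threshold, 122 lost the call and 7 gained it, and the causes were not tested.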
